A study of Mus musculus with 8 samples.

Results

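The comparison described here is that of SuHx exposure against control conditions in the right ventricle of mice that lack Fpr2. Its members are the 2 Fpr2-KO SuHx libraries, numbered 2 and 3 in the deposited table, and the 2 Fpr2-KO control libraries, also numbered 2 and 3, which makes 4 of the 8 libraries of the series. All genes of the table were examined in them. The Fpr2-KO SuHx mice were 8-week-old females without Fpr2 that received Sugen (20 mg/kg) and spent 3 weeks, or 21 days, in hypoxia. The Fpr2-KO control mice were females of the same age and genotype that stayed in normal oxygen for 21 days and for which no injection is named. The other 4 libraries are 2 from wild-type (WT) females under SuHx and 2 from WT females under control conditions, which serve here for the spread between libraries and for the comparison of genotypes. The labels do not say how the Fpr2 allele was made, whether it was lost in all cells, on which strain it was bred or whether each sample is an animal of its own. The p-values therefore reflect only how far these samples lie apart, and that distance may be technical. In bulk tissue, fewer cells of a type and less RNA per cell cannot be told apart, and this holds for every level given below.

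Sugen blocks the receptors of vascular endothelial growth factor, and in rodents its combination with hypoxia narrows the small arteries of the lung, so that the right ventricle has to pump against a raised pressure. The loaded ventricle is known for thicker muscle cells, a changed set of contractile proteins, more connective tissue and a turn from fatty acids toward glucose as fuel. Fpr2 encodes formyl peptide receptor 2, a G protein-coupled receptor best known from leukocytes, whose ligands include formylated peptides of bacteria and mitochondria, annexin A1 and certain lipids.

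The 8 libraries held 67965311 to 76292772 counts each, and the 4 Fpr2-KO libraries held 68292917 to 71985936. Mitochondrially coded genes took 24.2% to 28.2% of the counts. Fpr2 (ENSMUSG00000052270, mm10 chromosome 17, 17887824 to 17893952, plus strand) had 0 counts in all 4 Fpr2-KO libraries and 12 to 23 counts in the WT libraries. Levels are given as CPM, the counts of a gene scaled to a common library size. Where a gene has 2 values in a group these are libraries 2 and 3 in that order (n = 2 per group). Myl2, the regulatory light chain of ventricular myosin and a marker of the labelled tissue, was abundant in each library. It stood at 2888 and 3275 CPM in SuHx, against 2960.3 and 2888 CPM in control.

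One of the SuHx libraries also carried transcripts of atrial muscle. Bmp10, a growth factor that in the adult mouse heart is made by the right atrium, had 24461 counts in SuHx library 2 and 4 counts in SuHx library 3, against 0 and 0 counts in the control libraries. The atrial light chain Myl7 stood at 205 and 0 CPM in SuHx, against 0 and 0.330 CPM in control, and Sln, the atrial inhibitor of the calcium pump, at 161 and 0 CPM in SuHx, against 0 and 0 CPM in control. The essential light chain of the atrium, Myl4, was at 426 and 0.962 CPM in SuHx, against 1.05 and 1.32 CPM in control. These defining markers were at or near 0 in SuHx library 3 and in both control libraries. The list of 10 atrial markers summed to 4629 and 939.6 CPM in SuHx libraries 2 and 3, against 1283 and 1383 CPM in control libraries 2 and 3, and edgeR called 0 of the 10 in either direction (0 at an unadjusted p under 0.05, 4 higher by DESeq2). Among 10312 genes with a mean of at least 5 CPM, 22 were at least 4-fold higher and 7 at least 4-fold lower in SuHx library 2 than in SuHx library 3. Of the 7 lower ones, 5 carry predicted or clone names. The 9 markers of mesothelium and epicardium summed to 27.9 and 9.26 CPM in SuHx, against 14.5 and 21.9 CPM in control. Levels are therefore given per library for nearly all called genes that are described. Where the adjusted p of a called gene is given for SuHx against control, that of the same edgeR test without SuHx library 2 follows it.

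**Figure D1:**
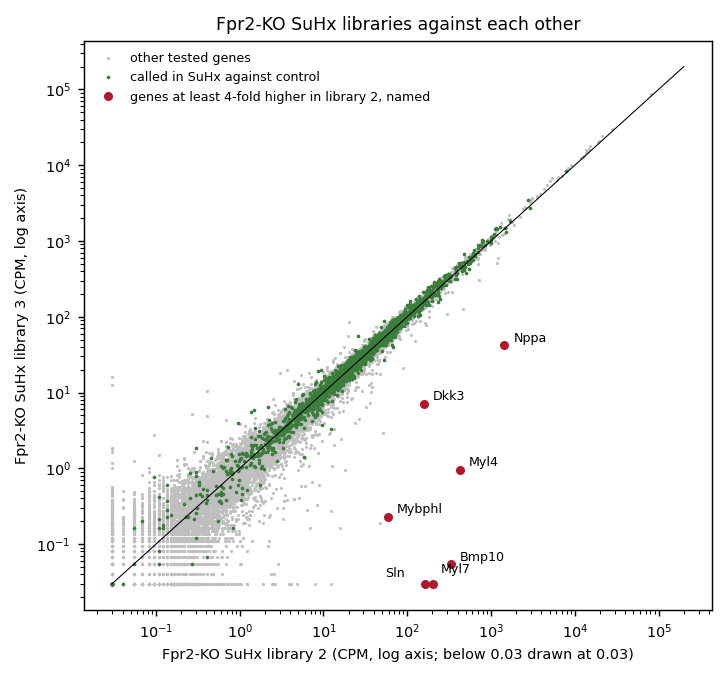
CPM of each tested gene in Fpr2-KO SuHx library 2 (horizontal, log axis) and library 3 (vertical, log axis), with genes called in SuHx against control in green and 7 genes high in library 2 in red; values below 0.03 are drawn at 0.03. The atrial genes lie far to the right of the diagonal.

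Of 19083 tested genes, 2038 passed an adjusted p under 0.05 in SuHx against control, which is 10.7% of the tested genes. Of these, 941 were higher (4.93%) and 1097 lower (5.75%), with 428 at least 2-fold higher and 261 at least 2-fold lower. The shares of 4.93% and 5.75% are the background for the counts of called members in every list below. Both SuHx libraries lay above both control libraries in 30.9% of all tested genes and below them in 28.1%, and all 2038 called genes were among these. A statement below that the groups of a called gene did not overlap therefore adds nothing to its call. Without SuHx library 2 the same test called 234 genes, 113 higher (0.592%) and 121 lower (0.634%), and 222 of them were also called with it, all in the same direction. The 234 are 1.23% of the tested genes. The 222 shared genes make up 10.9% of the calls with all libraries and 94.9% of the calls without library 2. All 2038 genes kept their direction without it. Leaving out a library also removes a degree of freedom, and other libraries moved the count as well: it was 522 without SuHx library 3, 304 without control library 3, 1054 without control library 2, 1019 and 1017 when WT SuHx library 1 or 3 was left out. When either WT control library was left out, which also removes a degree of freedom, the count was higher than with all libraries. The cause of these shifts was not tested. The median log2 fold change of all tested genes was 0.02.

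Genes of fatty acid use were lower in SuHx than in control. Of 34 tested genes of fatty acid uptake and beta-oxidation, 27 were called lower and 0 higher (edgeR; 28 lower and 1 higher at an unadjusted p under 0.05, and 28 lower and 1 higher by DESeq2), against 5.75% lower and 4.93% higher among all tested genes. The median log2 fold change of the list was -0.79, and without SuHx library 2 it was -0.65, with 12 members called lower, against 0.634% of all tested genes. The transporter Cd36, which takes up long-chain fatty acids at the cell surface, stood at 1161 and 1461 CPM in SuHx, against 2612 and 3059 CPM in control (log2 fold change -1.11 ± 0.13, edgeR adjusted p = 0.00393, 0.0259 without SuHx library 2). Both SuHx libraries lay below both control libraries. Cpt1b, the muscle enzyme that passes fatty acids to carnitine for entry into mitochondria, was at 434 and 516 CPM in SuHx, against 825 and 826 CPM in control (log2 fold change -0.80 ± 0.10, edgeR adjusted p = 0.00543, 0.0358 without SuHx library 2).

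Inside the mitochondrion, Hadha encodes the large subunit of the trifunctional protein, which carries out the last steps of beta-oxidation of long chains. It had 801 and 1012 CPM in SuHx, against 2057 and 1960.5 CPM in control (log2 fold change -1.15 ± 0.12, edgeR adjusted p = 0.00318, 0.0225 without SuHx library 2). The acyl-CoA thioesterases, which split acyl-CoA into free acid and coenzyme A, changed more: cytosolic Acot1 stood at 4.92 and 12.8 CPM in SuHx, against 124 and 153 CPM in control. Mitochondrial Acot2 was at 19.1 and 25.2 CPM in SuHx, against 129 and 115 CPM in control. Acot1 had a log2 fold change of -3.97 ± 0.46, edgeR adjusted p = 0.00843, 0.00464 without SuHx library 2. Acot2 had a log2 fold change of -2.46 ± 0.18, edgeR adjusted p = 0.00115, 0.0133 without SuHx library 2. Acot1 and Acot2 are close copies of each other, so reads could have been divided between them in counting. Slc27a1, a fatty acid transport protein, fell too, with 107 and 145 CPM in SuHx, against 379 and 342 CPM in control (log2 fold change -1.51 ± 0.16, edgeR adjusted p = 0.00322, 0.0251 without SuHx library 2). The members of the list that were not called included Cpt2 (-0.52 ± 0.16), Acads (-0.10 ± 0.09) and Fabp4 (-0.25 ± 0.15).

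Of 16 tested lipid droplet and lipolysis genes, which handle stored fat, edgeR called 4 lower and 0 higher (1 higher and 6 lower by DESeq2), against 5.75% lower and 4.93% higher among all tested genes. The count was 0 higher and 2 lower without SuHx library 2. Pnpla2, the lipase that starts the breakdown of triglycerides, had 227 and 271 CPM in SuHx, against 891 and 829.8 CPM in control (log2 fold change -1.79 ± 0.12, edgeR adjusted p = 0.000888, 0.00889 without SuHx library 2). Cidea, a protein of lipid droplets, was at 12.6 and 12.6 CPM in SuHx, against 22.6 and 25.4 CPM in control (log2 fold change -0.92 ± 0.12, edgeR adjusted p = 0.00543, 0.0490 without SuHx library 2). Of 14 regulators of fatty acid and mitochondrial genes, 3 were called lower (0 higher and 0 lower without SuHx library 2). Ppargc1a, the coactivator PGC-1alpha that drives mitochondrial gene expression, stood at 65.0 and 90.3 CPM in SuHx, against 205 and 231 CPM in control (log2 fold change -1.49 ± 0.30, edgeR adjusted p = 0.0280, 0.151 without SuHx library 2), so that the call was lost without that library. The receptor Ppara had -0.93 ± 0.37 and was not called (adjusted p = 0.162 by edgeR).

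Of 6 ketone body genes, 1 was called higher and 2 lower (1 higher and 1 lower without SuHx library 2). Oxct1, which lets tissues burn ketone bodies, was at 1032 and 1135 CPM in SuHx, against 584 and 449.9 CPM in control (log2 fold change 1.07 ± 0.14, edgeR adjusted p = 0.00609, 0.0370 without SuHx library 2). To compare levels of different genes, CPM was divided by the kilobases of exon annotated for the gene. On that scale Oxct1 reached 279 and 307 CPM per kilobase in SuHx, against 158 and 122 CPM per kilobase in control.

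Of 14 genes of pyruvate dehydrogenase control, 2 were called higher and 2 lower (0 higher and 0 lower without SuHx library 2). The lower ones encode kinases that switch the complex off. Pdk4 had 106 and 159.9 CPM in SuHx, against 724 and 761 CPM in control (log2 fold change -2.48 ± 0.49, edgeR adjusted p = 0.0349, 0.181 without SuHx library 2). Pdk1 was at 159 and 154 CPM in SuHx, against 226 and 235 CPM in control (log2 fold change -0.56 ± 0.09, edgeR adjusted p = 0.0102, 0.0666 without SuHx library 2). The phosphatase gene Pdp1, whose product switches the complex on, was higher, with 50.9 and 47.3 CPM in SuHx, against 37.2 and 32.3 CPM in control (log2 fold change 0.50 ± 0.12, edgeR adjusted p = 0.0355, 0.192 without SuHx library 2). Pdhb, a subunit of the complex, was higher as well, at 554 and 602 CPM in SuHx, against 440.2 and 443 CPM in control (log2 fold change 0.39 ± 0.09, edgeR adjusted p = 0.0279, 0.0878 without SuHx library 2). Per length, the level of Pdk4 was 30.3 and 45.5 CPM per kilobase in SuHx, against 206 and 217 CPM per kilobase in control, and that of Pdk2, another kinase of the family, was 115 and 115 CPM per kilobase in SuHx, against 144 and 144 CPM per kilobase in control.

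Of 22 tested genes of glycolysis and glucose uptake, 5 were called higher and 0 lower by edgeR (7 higher and 2 lower at an unadjusted p under 0.05, 7 higher and 1 lower by DESeq2), with a median log2 fold change of 0.16. Over all tested genes edgeR called 4.93% higher and 5.75% lower. Pgam2, the muscle form of phosphoglycerate mutase, stood at 292 and 265 CPM in SuHx, against 166 and 159 CPM in control (log2 fold change 0.78 ± 0.09, edgeR adjusted p = 0.00423, 0.0371 without SuHx library 2). It was the member that was also called without SuHx library 2. Pfkfb2, which makes the activator of phosphofructokinase in the heart, was at 57.6 and 69.6 CPM in SuHx, against 40.8 and 36.0 CPM in control (log2 fold change 0.73 ± 0.14, edgeR adjusted p = 0.0158, 0.0526 without SuHx library 2). Eno3, the muscle enolase, was at 993 and 1112 CPM in SuHx, against 765 and 660.1 CPM in control (log2 fold change 0.56 ± 0.11, edgeR adjusted p = 0.0170, 0.0599 without SuHx library 2). The hexokinase gene Hk2 overlapped between the groups, with 156 and 158 CPM in SuHx, against 200.1 and 156 CPM in control, and the transporter gene Slc2a1 was not called (0.39 ± 0.18).

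Genes of the respiratory chain did not pass the test. Of 32 nuclear genes for its subunits, edgeR called 0 (1 higher and 3 lower at an unadjusted p under 0.05, 1 lower by DESeq2), and their median log2 fold change was -0.01. Of 13 mitochondrially coded genes, edgeR called 0 (0 at an unadjusted p under 0.05, 0 by DESeq2), with a median of 0.12. In the tricarboxylic acid cycle 2 of 16 genes were called lower (0 higher and 0 lower without SuHx library 2). Idh2 was at 1452 and 1497 CPM in SuHx, against 2109 and 2382 CPM in control (log2 fold change -0.61 ± 0.11, edgeR adjusted p = 0.0158, 0.0986 without SuHx library 2). Sdha was at 1096 and 1249 CPM in SuHx, against 1568 and 1458 CPM in control (log2 fold change -0.37 ± 0.10, edgeR adjusted p = 0.0479, 0.219 without SuHx library 2).

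**Figure D2:**
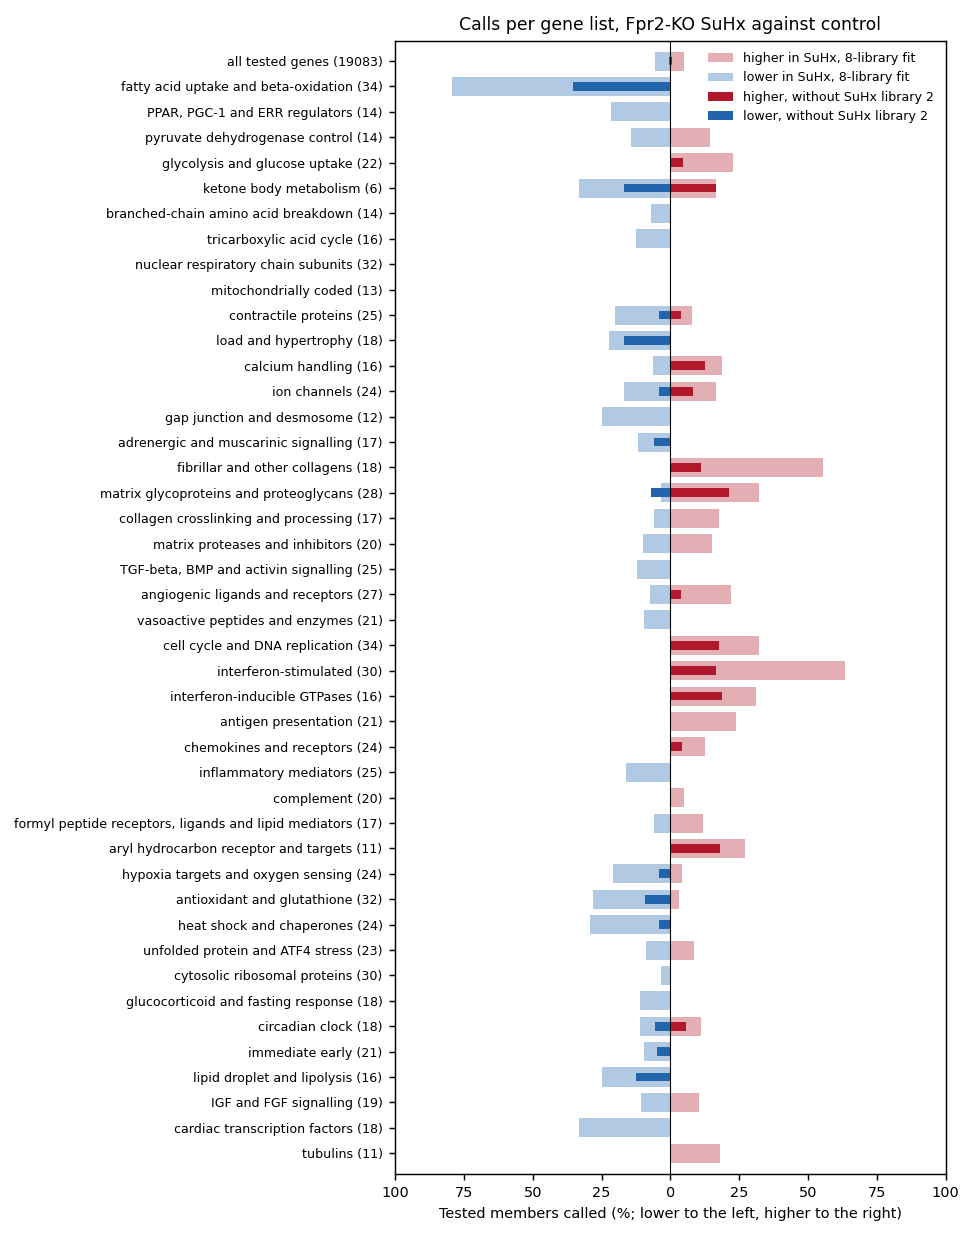
Share of tested members of each gene list called higher (right, red) or lower (left, blue) in Fpr2-KO SuHx against control; pale bars use all 8 libraries, dark bars leave out SuHx library 2, and the number tested is in parentheses. In the pale bars the fatty acid list reaches farthest to the left, with 27 of 34, and the interferon-stimulated list farthest to the right, with 19 of 30; in the dark bars these counts are 12 and 5, and matrix glycoproteins and proteoglycans, with 6 of 28, reach farther to the right.

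The contractile apparatus changed in a few members. Acta1, skeletal alpha-actin, which the fetal and the loaded heart express, had 302 and 302 CPM in SuHx, against 26.1 and 35.2 CPM in control (log2 fold change 3.30 ± 0.31, edgeR adjusted p = 0.00357, 0.0259 without SuHx library 2). The SuHx libraries were nearly equal. Per length, Acta1 reached 197 and 197 CPM per kilobase in SuHx, against 17.0 and 22.9 CPM per kilobase in control, next to Actc1, the cardiac actin, at 4293 and 4400.1 CPM per kilobase in SuHx, against 3178 and 2765 CPM per kilobase in control. Myh7, the slow beta-myosin heavy chain, was lower, at 484 and 459 CPM in SuHx, against 1642 and 4499 CPM in control (log2 fold change -2.70 ± 0.60, edgeR adjusted p = 0.0497, 0.212 without SuHx library 2). The controls themselves differed, control library 3 holding more than control library 2. Myh6, the fast alpha-myosin of the adult mouse heart, overlapped between the groups, with 12734 and 13420.0 CPM in SuHx, against 18886 and 11558 CPM in control (log2 fold change -0.22 ± 0.19, edgeR adjusted p = 0.525). Per kilobase of exon, Myh6 stood at 1893 and 1995 CPM per kilobase in SuHx, against 2808 and 1718 CPM per kilobase in control, and Myh7 at 56.1 and 53.2 CPM per kilobase in SuHx, against 191 and 522 CPM per kilobase in control. Of 25 contractile genes, 2 were called higher and 5 lower (1 higher and 1 lower without SuHx library 2). Mybpc3, the myosin-binding protein C, was the other one that rose, at 2927 and 2698 CPM in SuHx, against 1839 and 1316 CPM in control (log2 fold change 0.83 ± 0.15, edgeR adjusted p = 0.0142, 0.0960 without SuHx library 2). Myom2, a protein of the M-band, was among those that fell, at 1004 and 929.9 CPM in SuHx, against 2086 and 2130.0 CPM in control (log2 fold change -1.12 ± 0.15, edgeR adjusted p = 0.00627, 0.0446 without SuHx library 2). All 7 had no overlap between the groups, as had every called gene.

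The natriuretic peptides, which stretched heart muscle releases, did not pass the test. Nppa stood at 1441 and 41.8 CPM in SuHx, against 24.3 and 85.7 CPM in control, so that its height in SuHx rested on the library with atrial transcripts. Nppb was at 123 and 48.5 CPM in SuHx, against 53.4 and 112 CPM in control. Both overlapped between the groups, with log2 fold changes of 3.75 ± 1.83 and 0.05 ± 0.67 (edgeR adjusted p = 0.281 and 0.974), and without SuHx library 2 the values were -0.40 and -0.78. Of 18 load and hypertrophy genes, 4 were called and all 4 were lower (0 higher and 3 lower without SuHx library 2). Xirp1, an actin-binding protein of the intercalated disc, had 144 and 154 CPM in SuHx, against 491 and 564 CPM in control (log2 fold change -1.82 ± 0.10, edgeR adjusted p = 0.000788, 0.00767 without SuHx library 2). Fhl1, a LIM protein of the sarcomere that takes part in stretch sensing, was at 139 and 113 CPM in SuHx, against 281 and 395 CPM in control (log2 fold change -1.42 ± 0.16, edgeR adjusted p = 0.00361, 0.0252 without SuHx library 2). Nrap and Flnc encode proteins that link actin to membranes. Nrap stood at 377 and 352 CPM in SuHx, against 710.4 and 619 CPM in control (log2 fold change -0.87 ± 0.11, edgeR adjusted p = 0.00545, 0.0373 without SuHx library 2). Flnc was at 158 and 147 CPM in SuHx, against 306 and 331 CPM in control (log2 fold change -1.06 ± 0.23, edgeR adjusted p = 0.0304, 0.146 without SuHx library 2). Ankrd1, a stretch-responsive cofactor, overlapped, with 1197 and 603 CPM in SuHx, against 952 and 2066 CPM in control.

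Of 16 calcium handling genes, 3 were called higher and 1 lower (2 higher and 0 lower without SuHx library 2), and the median log2 fold change was 0.03. Casq2, cardiac calsequestrin, which binds calcium in the sarcoplasmic reticulum, stood at 709 and 864 CPM in SuHx, against 497 and 483 CPM in control (log2 fold change 0.68 ± 0.12, edgeR adjusted p = 0.0128, 0.0320 without SuHx library 2). Its skeletal muscle relative Casq1 was far less abundant per length, at 3.77 and 4.45 CPM per kilobase in SuHx, against 0.471 and 0.784 CPM per kilobase in control. Its level was 7.35 and 8.69 CPM in SuHx, against 0.919 and 1.53 CPM in control (log2 fold change 2.71 ± 0.39, edgeR adjusted p = 0.00678, 0.0417 without SuHx library 2). Asph, whose products include the calsequestrin anchor junctin, was the third, at 154 and 162 CPM in SuHx, against 123 and 106 CPM in control (log2 fold change 0.47 ± 0.11, edgeR adjusted p = 0.0297, 0.126 without SuHx library 2). The pump gene Atp2a2 overlapped, at 9046 and 10117 CPM in SuHx, against 11279 and 9472 CPM in control. Cacnb2, a subunit of the L-type calcium channel, fell, at 71.1 and 75.4 CPM in SuHx, against 106 and 109 CPM in control (log2 fold change -0.55 ± 0.12, edgeR adjusted p = 0.0273, 0.159 without SuHx library 2).

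Of 24 ion channel genes, 4 were called higher and 4 lower (2 higher and 1 lower without SuHx library 2). Hcn2, a pacemaker channel, stood at 44.0 and 38.1 CPM in SuHx, against 14.6 and 15.4 CPM in control (log2 fold change 1.46 ± 0.19, edgeR adjusted p = 0.00543, 0.0446 without SuHx library 2). Hcn4, the main one of the sinus node, rose at a low level, with 6.21 and 8.23 CPM in SuHx, against 3.94 and 2.60 CPM in control (log2 fold change 1.14 ± 0.29, edgeR adjusted p = 0.0402, 0.114 without SuHx library 2). Among potassium channels, Kcnj11 was at 107 and 105 CPM in SuHx, against 161 and 162 CPM in control (log2 fold change -0.61 ± 0.09, edgeR adjusted p = 0.00832, 0.0635 without SuHx library 2). Kcnk3 was at 167 and 181 CPM in SuHx, against 243 and 260.4 CPM in control (log2 fold change -0.54 ± 0.09, edgeR adjusted p = 0.0130, 0.100 without SuHx library 2). The groups of both were separate. In the desmosome, which holds muscle cells together, Dsp, Jup and Dsg2 were called lower among 12 genes of gap junctions and desmosomes, and these 3 were not called without SuHx library 2. The adenylyl cyclase gene Adcy6, which acts behind the beta-adrenergic receptors, had 207 and 285 CPM in SuHx, against 491 and 470.1 CPM in control (log2 fold change -0.97 ± 0.15, edgeR adjusted p = 0.00843, 0.0403 without SuHx library 2).

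Of 18 cardiac transcription factor genes, 6 were called lower and 0 higher by edgeR (8 lower and 1 higher at an unadjusted p under 0.05, 8 lower by DESeq2). The edgeR shares over all tested genes were 5.75% lower and 4.93% higher. The zinc finger factor Gata4 stood at 90.3 and 90.1 CPM in SuHx, against 148 and 156 CPM in control (log2 fold change -0.75 ± 0.11, edgeR adjusted p = 0.00792, 0.0641 without SuHx library 2). Tbx20, a T-box factor, was at 94.0 and 94.2 CPM in SuHx, against 171 and 155 CPM in control (log2 fold change -0.79 ± 0.13, edgeR adjusted p = 0.0115, 0.0870 without SuHx library 2). Both had no overlap between groups, and without SuHx library 2 none of the 6 was called.

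**Figure D3:**
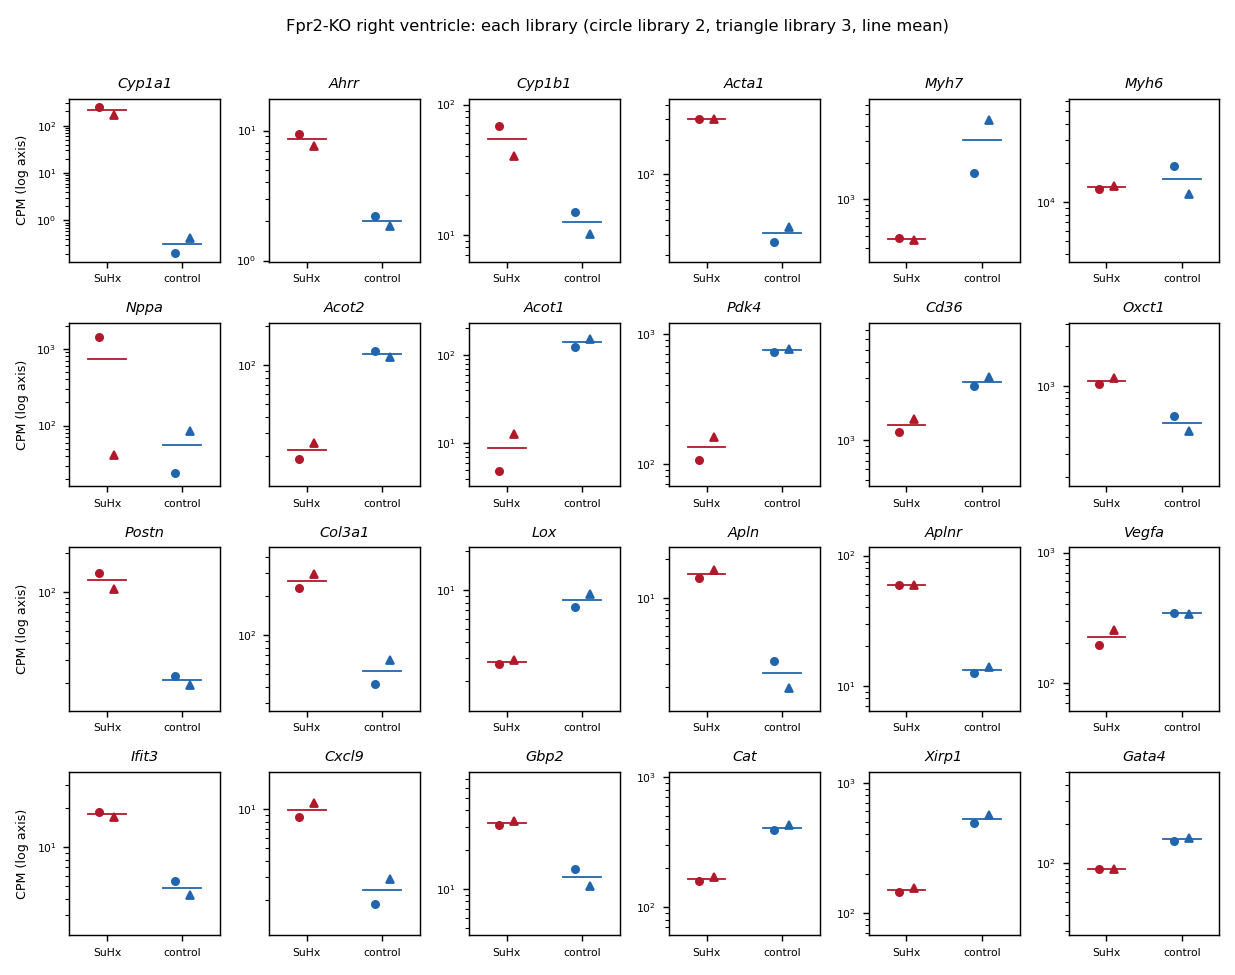
CPM (log axis) of 24 genes described here in each Fpr2-KO library, SuHx in red to the left and control in blue to the right; circles are library 2, triangles library 3 and lines the group means. Nppa shows a SuHx library 2 far above SuHx library 3, while genes such as Acta1, Acot1 and Postn have both SuHx libraries on one side of both controls.

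Collagen genes were higher. All 18 tested collagen genes had both SuHx libraries above both control libraries, against 30.9% of all tested genes, and 10 were called higher by edgeR and 0 lower (14 higher and 0 lower at an unadjusted p under 0.05, 12 higher and 0 lower by DESeq2). The median log2 fold change of the list was 0.99, and without SuHx library 2 it was 1.05 with 2 members called. Col3a1, the collagen of fine reticular fibres, stood at 229.7 and 298 CPM in SuHx, against 41.9 and 64.0 CPM in control (log2 fold change 2.32 ± 0.43, edgeR adjusted p = 0.0282, 0.102 without SuHx library 2). Col1a1, of the main fibrillar collagen, was at 72.2 and 98.5 CPM in SuHx, against 25.9 and 37.7 CPM in control, and its change did not pass the test (log2 fold change 1.42 ± 0.36, edgeR adjusted p = 0.0566). Col8a1 and Col6a2, of a network-forming and a beaded collagen, were the members also called without SuHx library 2, with 24.2 and 23.9 CPM in SuHx, against 7.34 and 10.5 CPM in control for Col8a1 and 84.4 and 104 CPM in SuHx, against 33.4 and 39.0 CPM in control for Col6a2.

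Among 28 matrix glycoproteins and proteoglycans, 9 were called higher and 1 lower, against 4.93% and 5.75% of all tested genes. The median log2 fold change of the list was 0.60, and without SuHx library 2 it was 0.13. Both SuHx libraries lay above both controls in 13 members and below them in 4, against 30.9% and 28.1% of all tested genes. Postn, periostin, which activated fibroblasts secrete, had 140.1 and 105 CPM in SuHx, against 22.5 and 19.1 CPM in control (log2 fold change 2.56 ± 0.21, edgeR adjusted p = 0.00211, 0.0168 without SuHx library 2). Aspn, a small proteoglycan that binds collagen, was at 50.5 and 53.1 CPM in SuHx, against 23.1 and 22.1 CPM in control (log2 fold change 1.20 ± 0.11, edgeR adjusted p = 0.00212, 0.0241 without SuHx library 2). The gene Mfap5, of elastic microfibrils, was at 33.8 and 34.1 CPM in SuHx, against 14.5 and 12.2 CPM in control (log2 fold change 1.34 ± 0.14, edgeR adjusted p = 0.00321, 0.0268 without SuHx library 2). Thbs2, a thrombospondin that limits vessel growth and matrix turnover, was the one that fell, with 22.5 and 22.2 CPM in SuHx, against 59.7 and 48.1 CPM in control (log2 fold change -1.27 ± 0.14, edgeR adjusted p = 0.00338, 0.0346 without SuHx library 2).

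Of 17 genes that crosslink and process collagen, 3 were called higher and 1 lower (0 higher and 0 lower without SuHx library 2). Pcolce, an enhancer of procollagen cleavage, stood at 60.1 and 56.9 CPM in SuHx, against 27.4 and 26.2 CPM in control (log2 fold change 1.13 ± 0.17, edgeR adjusted p = 0.00874, 0.0691 without SuHx library 2). Bmp1, the protease it helps, was at 53.8 and 60.8 CPM in SuHx, against 38.9 and 38.0 CPM in control (log2 fold change 0.58 ± 0.14, edgeR adjusted p = 0.0365, 0.115 without SuHx library 2). Loxl2, a lysyl oxidase that links collagen chains, was at 27.2 and 29.4 CPM in SuHx, against 16.8 and 10.9 CPM in control (log2 fold change 1.03 ± 0.26, edgeR adjusted p = 0.0431, 0.159 without SuHx library 2). Lox itself was lower, at 2.70 and 2.93 CPM in SuHx, against 7.48 and 9.39 CPM in control (log2 fold change -1.58 ± 0.25, edgeR adjusted p = 0.0102, 0.0882 without SuHx library 2), and its groups did not overlap. Of 25 genes of TGF-beta, BMP and activin signalling, edgeR called 3 lower and 0 higher (0 higher and 4 lower by DESeq2), against 5.75% lower and 4.93% higher among all tested genes. The count was 0 higher and 0 lower without SuHx library 2. Bmpr2, the receptor whose mutations cause inherited pulmonary hypertension in humans, was at 68.2 and 73.6 CPM in SuHx, against 97.2 and 115 CPM in control (log2 fold change -0.58 ± 0.11, edgeR adjusted p = 0.0193, 0.135 without SuHx library 2). Ccn2, a growth factor of fibrosis, overlapped, at 299 and 109 CPM in SuHx, against 134 and 133 CPM in control. The fibroblast marker list includes matrix genes such as Col1a1, Postn, Mfap5 and Lum, so it is not independent of the results above. Its 13 tested members summed to 3438 and 3128 CPM in SuHx, against 3121 and 2802 CPM in control. The members Postn, Mfap5 and Lum, 3 in all, were called higher. The part of fibroblast number in the collagen result was not tested.

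Apelin and its receptor had the largest changes in the list of angiogenic genes. Apln, a peptide made by the tips of growing vessels, stood at 14.2 and 16.6 CPM in SuHx, against 3.19 and 1.95 CPM in control (log2 fold change 2.58 ± 0.28, edgeR adjusted p = 0.00338, 0.0251 without SuHx library 2). Aplnr, its receptor on endothelium, was at 59.3 and 59.7 CPM in SuHx, against 12.4 and 14.0 CPM in control (log2 fold change 2.17 ± 0.37, edgeR adjusted p = 0.0178, 0.0914 without SuHx library 2). In the same list Vegfa, the growth factor whose receptors Sugen blocks, was lower, at 193 and 255 CPM in SuHx, against 345 and 335 CPM in control (log2 fold change -0.60 ± 0.13, edgeR adjusted p = 0.0280, 0.133 without SuHx library 2). The receptor Flt1 was lower too, at 73.2 and 63.0 CPM in SuHx, against 100.05 and 96.5 CPM in control (log2 fold change -0.53 ± 0.13, edgeR adjusted p = 0.0417, 0.115 without SuHx library 2), and the groups of both genes were separate. The receptor Kdr had 109.5 and 108 CPM in SuHx, against 116 and 135 CPM in control and was not called (log2 fold change -0.21 ± 0.14, edgeR adjusted p = 0.391). Together, 6 of 27 angiogenic genes were called higher and 2 lower (1 higher and 0 lower without SuHx library 2). The endothelial marker list, with 20 tested members, summed to 2036 and 1874 CPM in SuHx, against 1601 and 1731 CPM in control, and 6 of the members were called higher (0 higher and 0 lower without SuHx library 2). One was Emcn, endomucin, at 70.7 and 54.6 CPM in SuHx, against 33.3 and 36.4 CPM in control (log2 fold change 0.85 ± 0.14, edgeR adjusted p = 0.0119, 0.0878 without SuHx library 2). The part of endothelial cell number in the angiogenic genes was not tested.

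Genes of the aryl hydrocarbon receptor, a transcription factor that planar compounds activate, included one of the largest rises among all called genes. Cyp1a1, the cytochrome P450 that is its best known target, stood at 249 and 172 CPM in SuHx, against 0.201 and 0.435 CPM in control (log2 fold change 9.37 ± 0.43, edgeR adjusted p = 0.000788, 0.00150 without SuHx library 2). Both SuHx libraries exceeded both controls by far. Ahrr, the repressor that the receptor induces against itself, was at 9.400 and 7.66 CPM in SuHx, against 2.197 and 1.83 CPM in control (log2 fold change 2.08 ± 0.23, edgeR adjusted p = 0.00338, 0.0320 without SuHx library 2). Cyp1b1, a further cytochrome target, was at 68.4 and 40.0 CPM in SuHx, against 15.0 and 10.04 CPM in control (log2 fold change 2.11 ± 0.41, edgeR adjusted p = 0.0286, 0.117 without SuHx library 2). Of 11 tested genes of the pathway edgeR called these 3 higher and 0 lower (5 higher and 3 lower at an unadjusted p under 0.05, 3 higher and 3 lower by DESeq2). Among those that edgeR did not call were the receptor gene Ahr (-0.80 ± 0.26) and the target gene Tiparp (0.49 ± 0.16, adjusted p = 0.0844 by edgeR).

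The promoters of the 3 genes are shown because the receptor is known to bind the core GCGTG in DNA. Each sequence runs from 250 bases before the annotated gene start to 50 bases after it, 5′ to 3′ on the gene's strand, from RefSeq on GRCm38.p6, with GCGTG, or its reverse complement CACGC, in capitals.
Cyp1a1, chr9:57697363-57697662, plus strand: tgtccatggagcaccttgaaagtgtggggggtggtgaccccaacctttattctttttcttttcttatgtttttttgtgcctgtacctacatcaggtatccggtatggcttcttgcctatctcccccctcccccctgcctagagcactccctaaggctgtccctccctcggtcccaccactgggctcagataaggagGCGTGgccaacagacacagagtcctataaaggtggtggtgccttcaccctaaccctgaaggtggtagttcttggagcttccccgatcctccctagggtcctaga
Ahrr, chr13:74292282-74292581, minus strand: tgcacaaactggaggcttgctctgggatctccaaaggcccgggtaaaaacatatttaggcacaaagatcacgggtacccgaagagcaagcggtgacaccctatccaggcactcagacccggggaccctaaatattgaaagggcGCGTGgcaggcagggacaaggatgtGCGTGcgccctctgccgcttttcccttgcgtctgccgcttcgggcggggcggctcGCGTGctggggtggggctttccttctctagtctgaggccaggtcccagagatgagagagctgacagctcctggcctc
Cyp1b1, chr17:79715012-79715311, minus strand: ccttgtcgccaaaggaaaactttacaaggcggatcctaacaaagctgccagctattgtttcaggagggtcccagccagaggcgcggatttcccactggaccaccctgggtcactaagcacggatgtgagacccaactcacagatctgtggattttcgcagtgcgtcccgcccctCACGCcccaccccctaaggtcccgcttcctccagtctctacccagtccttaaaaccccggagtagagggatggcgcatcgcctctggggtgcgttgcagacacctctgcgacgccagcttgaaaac
The core occurred once in the windows of Cyp1a1 and Cyp1b1 and 3 times in that of Ahrr. It is a short and common motif: 32.4% of 32851 promoter windows hold it on either strand, and so do 51.8% of the 12683 tested genes that have a window. In the list, 6 of 9 genes with a window hold it. A match is only a description of these letters and does not show that the receptor was bound.

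Interferon-stimulated genes, which cells use to hold off viruses, were higher. All 30 tested members had both SuHx libraries above both control libraries, against 30.9% of all tested genes, and 19 were called higher and 0 lower by edgeR (27 higher and 0 lower at an unadjusted p under 0.05, 23 higher and 0 lower by DESeq2). Their median log2 fold change was 1.07, and without SuHx library 2 it was 1.10 with 5 members called. Ifit3, which binds viral RNA complexes, stood at 18.7 and 17.1 CPM in SuHx, against 5.43 and 4.25 CPM in control (log2 fold change 1.89 ± 0.23, edgeR adjusted p = 0.00473, 0.0380 without SuHx library 2). Bst2, tetherin, which holds budding viruses at the membrane, was at 21.0 and 29.5 CPM in SuHx, against 8.70 and 7.97 CPM in control (log2 fold change 1.60 ± 0.21, edgeR adjusted p = 0.00543, 0.0241 without SuHx library 2). Irf7, a transcription factor of the interferon response, was at 22.7 and 23.5 CPM in SuHx, against 7.10 and 8.18 CPM in control (log2 fold change 1.59 ± 0.26, edgeR adjusted p = 0.0107, 0.0645 without SuHx library 2). Isg15 was not called, at 3.90 and 4.20 CPM in SuHx, against 1.25 and 1.34 CPM in control (log2 fold change 1.65 ± 0.52, edgeR adjusted p = 0.0793).

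The interferon-inducible GTPases, which attack membranes of intracellular pathogens, had 5 of 16 members called higher (3 higher and 0 lower without SuHx library 2). Gbp2 stood at 31.1 and 33.1 CPM in SuHx, against 14.2 and 10.6 CPM in control (log2 fold change 1.38 ± 0.17, edgeR adjusted p = 0.00473, 0.0346 without SuHx library 2). Gbp3 was at 19.3 and 23.8 CPM in SuHx, against 8.30 and 5.45 CPM in control (log2 fold change 1.65 ± 0.23, edgeR adjusted p = 0.00630, 0.0346 without SuHx library 2). Both were also called without SuHx library 2, as was Gbp5. Of 21 antigen presentation genes, 20 had both SuHx libraries above both controls, against 30.9% of all tested genes. EdgeR called 5 higher and 0 lower (11 higher and 0 lower by DESeq2), against 4.93% higher among all tested genes, and the count was 0 higher and 0 lower without SuHx library 2. Psmb9, an immunoproteasome subunit, stood at 8.75 and 8.13 CPM in SuHx, against 3.12 and 2.73 CPM in control (log2 fold change 1.53 ± 0.21, edgeR adjusted p = 0.00624, 0.0531 without SuHx library 2). B2m, the light chain of class I molecules, was at 265 and 298 CPM in SuHx, against 179 and 135 CPM in control (log2 fold change 0.85 ± 0.16, edgeR adjusted p = 0.0159, 0.0716 without SuHx library 2). Cxcl9, a chemokine that interferon-gamma induces, was at 8.61 and 11.2 CPM in SuHx, against 1.85 and 2.91 CPM in control (log2 fold change 2.05 ± 0.27, edgeR adjusted p = 0.00543, 0.0282 without SuHx library 2). The related Cxcl10 was low, at 1.43 and 1.31 CPM in SuHx, against 0.733 and 0.660 CPM in control, and was not called. Of 24 tested chemokines and receptors, edgeR called 3 higher and 0 lower, against 4.93% and 5.75% of all tested genes. The median log2 fold change of that list was -0.05. Both SuHx libraries lay above both controls in 8 and below them in 6, against 30.9% and 28.1% of all tested genes.

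Interferon-regulatory factors are known to bind elements built on repeats of GAAA. The windows of 3 called genes, picked among those that hold the pattern GAAANNGAAA, are shown as above, with its matches on either strand in capitals.
Ifit3, chr19:34583279-34583578, plus strand: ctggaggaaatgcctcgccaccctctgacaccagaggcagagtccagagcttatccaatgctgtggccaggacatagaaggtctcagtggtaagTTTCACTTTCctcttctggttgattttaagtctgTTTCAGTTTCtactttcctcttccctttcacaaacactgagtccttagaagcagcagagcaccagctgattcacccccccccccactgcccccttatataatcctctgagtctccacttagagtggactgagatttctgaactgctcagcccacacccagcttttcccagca
Bst2, chr8:71537423-71537722, minus strand: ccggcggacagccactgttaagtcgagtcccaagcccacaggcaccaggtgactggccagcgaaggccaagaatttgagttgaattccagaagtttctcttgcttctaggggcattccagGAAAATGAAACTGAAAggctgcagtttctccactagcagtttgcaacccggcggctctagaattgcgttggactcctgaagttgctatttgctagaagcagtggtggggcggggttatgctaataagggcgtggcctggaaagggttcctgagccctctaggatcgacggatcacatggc
Gbp3, chr3:142559794-142560093, plus strand: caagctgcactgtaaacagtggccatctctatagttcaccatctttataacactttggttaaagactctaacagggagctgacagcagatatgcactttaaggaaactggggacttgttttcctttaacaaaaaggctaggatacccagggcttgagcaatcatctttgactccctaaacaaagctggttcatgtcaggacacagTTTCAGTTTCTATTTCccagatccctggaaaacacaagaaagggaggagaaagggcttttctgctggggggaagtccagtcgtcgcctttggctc
The pattern was found in 3.44% of all promoter windows and in 3.93% of the tested genes with one. It was present in 11 of 21 interferon-stimulated genes with a window, in 9 of 9 interferon-inducible GTPases and in 2 of 16 antigen presentation genes. Among the called members it was in 6 of 13, 4 of 4 and 1 of 5 of these lists. The first of the 2 RefSeq windows of Gbp3 is printed, and matches in the windows of Bst2 and Gbp3 overlap each other. The other window of Gbp3 and that of the called gene Irf7 held 0 matches. A match does not show that a factor was bound.

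Immune cell markers moved in part with these genes. The 20 tested macrophage and monocyte markers summed to 506.4 and 526.4 CPM in SuHx, against 413.9 and 308.3 CPM in control, and 3 were called higher (0 higher and 0 lower without SuHx library 2). Adgre1, the F4/80 antigen, was at 22.0 and 25.9 CPM in SuHx, against 11.002 and 8.72 CPM in control (log2 fold change 1.28 ± 0.24, edgeR adjusted p = 0.0158, 0.0737 without SuHx library 2). Neutrophil markers were near the detection limit, with a summed level of 3.97 and 2.48 CPM in SuHx, against 3.42 and 16.3 CPM in control, the highest value standing in control library 3. The 14 T and NK cell markers summed to 6.28 and 5.00 CPM in SuHx, against 3.59 and 6.002 CPM in control. The part of these cells in the interferon and antigen presentation results was not tested. Of 25 inflammatory mediators, 4 were called and all 4 were lower, against 5.75% lower and 4.93% higher among all tested genes. Stat3, which acts behind interleukin-6 receptors, was at 102 and 96.2 CPM in SuHx, against 146 and 153 CPM in control (log2 fold change -0.60 ± 0.11, edgeR adjusted p = 0.0136, 0.0810 without SuHx library 2). Tlr4, the lipopolysaccharide receptor, was at 12.7 and 13.6 CPM in SuHx, against 20.4 and 21.3 CPM in control (log2 fold change -0.67 ± 0.15, edgeR adjusted p = 0.0280, 0.159 without SuHx library 2). Lcn2, lipocalin 2, was low, at 1.21 and 0.515 CPM in SuHx, against 2.43 and 6.63 CPM in control (log2 fold change -2.39 ± 0.54, edgeR adjusted p = 0.0304, 0.0735 without SuHx library 2). Osmr, the oncostatin M receptor, was at 27.3 and 23.9 CPM in SuHx, against 42.3 and 45.2 CPM in control (log2 fold change -0.77 ± 0.18, edgeR adjusted p = 0.0315, 0.120 without SuHx library 2). None of the 4 was called without SuHx library 2. Il1b and Il6 stood below 2 CPM in each library and were not called.

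Ligands and relatives of the deleted receptor were measured too. Of 17 tested formyl peptide receptors, ligands and lipid mediator genes, edgeR called 2 higher and 1 lower, against 4.93% and 5.75% of all tested genes. The median log2 fold change of the list was 0.06. Both SuHx libraries lay above both controls in 6 and below them in 4, against 30.9% and 28.1% of all tested genes. Anxa1, annexin A1, a protein ligand of Fpr2, stood at 38.0 and 27.7 CPM in SuHx, against 20.9 and 18.3 CPM in control (log2 fold change 0.75 ± 0.17, edgeR adjusted p = 0.0315, 0.195 without SuHx library 2), with no overlap between groups. The related Anxa2 rose, at 84.0 and 75.03 CPM in SuHx, against 42.1 and 52.0 CPM in control (log2 fold change 0.76 ± 0.13, edgeR adjusted p = 0.0137, 0.106 without SuHx library 2). Anxa11 fell, at 39.4 and 36.8 CPM in SuHx, against 61.1 and 68.4 CPM in control (log2 fold change -0.77 ± 0.18, edgeR adjusted p = 0.0321, 0.143 without SuHx library 2). Fpr1, the paralog that binds the same class of peptides, had 8 and 4 counts in SuHx, against 8 and 39 counts in control, which is too few for a comparison, and the highest count was in the library that also had the most neutrophil transcripts.

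Cell cycle genes were higher at low levels. Of 34 tested members, 11 were called higher and 0 lower by edgeR (20 higher and 1 lower at an unadjusted p under 0.05, 15 higher and 0 lower by DESeq2), and the median log2 fold change was 1.24, or 1.44 without SuHx library 2 with 6 members called. Top2a, the topoisomerase of dividing cells, stood at 1.37 and 5.48 CPM in SuHx, against 0.531 and 0.240 CPM in control (log2 fold change 3.14 ± 0.67, edgeR adjusted p = 0.0266, 0.0251 without SuHx library 2). The Ki-67 antigen gene Mki67 was at 1.47 and 5.86 CPM in SuHx, against 0.646 and 0.870 CPM in control (log2 fold change 2.27 ± 0.57, edgeR adjusted p = 0.0419, 0.0194 without SuHx library 2). In both genes SuHx library 3 held more than SuHx library 2, and both libraries exceeded the controls. Mcm5, a part of the DNA helicase, was at 4.08 and 6.398 CPM in SuHx, against 1.78 and 1.82 CPM in control (log2 fold change 1.54 ± 0.27, edgeR adjusted p = 0.0134, 0.0346 without SuHx library 2). Cdkn1a, the inhibitor p21, was not called, with -1.58 ± 0.57.

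Of 32 antioxidant and glutathione genes, which protect against oxidants, edgeR called 9 lower and 1 higher (2 higher and 10 lower by DESeq2, and 0 higher and 3 lower without SuHx library 2). Cat, catalase, which destroys hydrogen peroxide, had 157 and 170.3 CPM in SuHx, against 394 and 424 CPM in control (log2 fold change -1.32 ± 0.12, edgeR adjusted p = 0.00212, 0.0251 without SuHx library 2). Gclm, the modifier of the enzyme that limits glutathione synthesis, was at 26.1 and 27.2 CPM in SuHx, against 50.8 and 79.2 CPM in control (log2 fold change -1.28 ± 0.19, edgeR adjusted p = 0.00843, 0.0769 without SuHx library 2). Srxn1, sulfiredoxin, which repairs peroxiredoxins, was at 21.8 and 15.2 CPM in SuHx, against 56.2 and 115 CPM in control (log2 fold change -2.21 ± 0.45, edgeR adjusted p = 0.0327, 0.125 without SuHx library 2). Control library 3 was the highest in both. Of 24 heat shock and chaperone genes, 7 were called lower and 0 higher by edgeR (12 lower and 2 higher at an unadjusted p under 0.05, 11 lower by DESeq2). Over all tested genes edgeR called 5.75% lower and 4.93% higher. Bag3, a co-chaperone that clears damaged sarcomere proteins, stood at 154 and 162 CPM in SuHx, against 341 and 372 CPM in control (log2 fold change -1.17 ± 0.13, edgeR adjusted p = 0.00361, 0.0380 without SuHx library 2). It was the one also called without SuHx library 2. Of 23 tested unfolded protein and ATF4 stress genes, edgeR called 2 higher and 2 lower, with a median log2 fold change of 0.02. Both SuHx libraries lay above both controls in 6 and below them in 7, against 30.9% and 28.1% of all tested genes. Atf4, the factor of the integrated stress response, fell, at 60.8 and 70.2 CPM in SuHx, against 128 and 176 CPM in control (log2 fold change -1.21 ± 0.23, edgeR adjusted p = 0.0206, 0.138 without SuHx library 2). Chac1, one of its targets, rose at a low level, with 3.88 and 2.70 CPM in SuHx, against 0.373 and 0.120 CPM in control (log2 fold change 3.72 ± 0.77, edgeR adjusted p = 0.0250, 0.118 without SuHx library 2).

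Of 24 hypoxia target and oxygen sensing genes, 5 were called lower and 1 higher, against 5.75% lower and 4.93% higher among all tested genes. The median log2 fold change of that list was -0.28, and -0.37 without SuHx library 2. Bnip3, a mitochondrial protein of mitophagy, had 135 and 141 CPM in SuHx, against 391 and 469 CPM in control (log2 fold change -1.64 ± 0.19, edgeR adjusted p = 0.00443, 0.0472 without SuHx library 2). Car4, a membrane-bound carbonic anhydrase, was at 11.2 and 10.5 CPM in SuHx, against 22.6 and 27.1 CPM in control (log2 fold change -1.19 ± 0.17, edgeR adjusted p = 0.00678, 0.0541 without SuHx library 2). The one that rose was Higd1a, a small protein of the inner mitochondrial membrane, at 42.9 and 47.4 CPM in SuHx, against 27.1 and 26.9 CPM in control (log2 fold change 0.74 ± 0.11, edgeR adjusted p = 0.00878, 0.0505 without SuHx library 2). In the circadian clock list, Dbp, an output factor of the clock, stood at 182 and 142 CPM in SuHx, against 75.5 and 58.6 CPM in control (log2 fold change 1.27 ± 0.16, edgeR adjusted p = 0.00536, 0.0385 without SuHx library 2). Of the 18 tested clock genes, edgeR called 2 higher and 2 lower, and the median log2 fold change was -0.37. Both SuHx libraries lay below both controls in 11 and above them in 4, against 28.1% and 30.9% of all tested genes. The hour at which tissue was taken is not given in the sources used here. Nr4a1, an immediate early nuclear receptor, was lower, with 12.6 and 7.77 CPM in SuHx, against 45.0 and 35.7 CPM in control (log2 fold change -1.98 ± 0.34, edgeR adjusted p = 0.0177, 0.0490 without SuHx library 2). Cytosolic ribosomal proteins had a median of -0.27, and edgeR called 1 of 30 lower and 0 higher. At an unadjusted p under 0.05 edgeR had 13 lower and 0 higher, and DESeq2 called 9 lower and 0 higher. Both SuHx libraries lay below both controls in 22 and above them in 0, against 28.1% and 30.9% of all tested genes. Without control library 3 the median of this list was -0.09.

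Some of the largest changes fell outside these lists. Chrna2, a subunit of the nicotinic acetylcholine receptor, had 0.299 and 0.881 CPM in SuHx, against 10.9 and 11.7 CPM in control (log2 fold change -4.26 ± 0.44, edgeR adjusted p = 0.00330, 0.0169 without SuHx library 2). Inmt, which methylates indole amines, stood at 8.37 and 5.12 CPM in SuHx, against 43.4 and 31.4 CPM in control (log2 fold change -2.47 ± 0.30, edgeR adjusted p = 0.00574, 0.0249 without SuHx library 2). Fbp2, the muscle fructose bisphosphatase, was at 9.30 and 19.7 CPM in SuHx, against 60.8 and 63.6 CPM in control (log2 fold change -2.10 ± 0.33, edgeR adjusted p = 0.0132, 0.0247 without SuHx library 2). Scd4, a stearoyl-CoA desaturase of the heart, was at 4.58 and 7.55 CPM in SuHx, against 58.2 and 75.2 CPM in control (log2 fold change -3.46 ± 0.49, edgeR adjusted p = 0.0132, 0.0863 without SuHx library 2). Serpina3n, a secreted protease inhibitor, was at 9.67 and 3.71 CPM in SuHx, against 47.2 and 59.3 CPM in control (log2 fold change -2.99 ± 0.61, edgeR adjusted p = 0.0376, 0.0625 without SuHx library 2). Upward, Nrep, a neuronal regeneration related protein, was at 19.9 and 22.8 CPM in SuHx, against 3.16 and 3.27 CPM in control (log2 fold change 2.73 ± 0.25, edgeR adjusted p = 0.00212, 0.0184 without SuHx library 2). Klhl38, a kelch protein of muscle, was at 29.2 and 30.1 CPM in SuHx, against 3.53 and 2.78 CPM in control (log2 fold change 3.23 ± 0.59, edgeR adjusted p = 0.0273, 0.114 without SuHx library 2). The groups of both genes were separate.

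**Figure D4:**
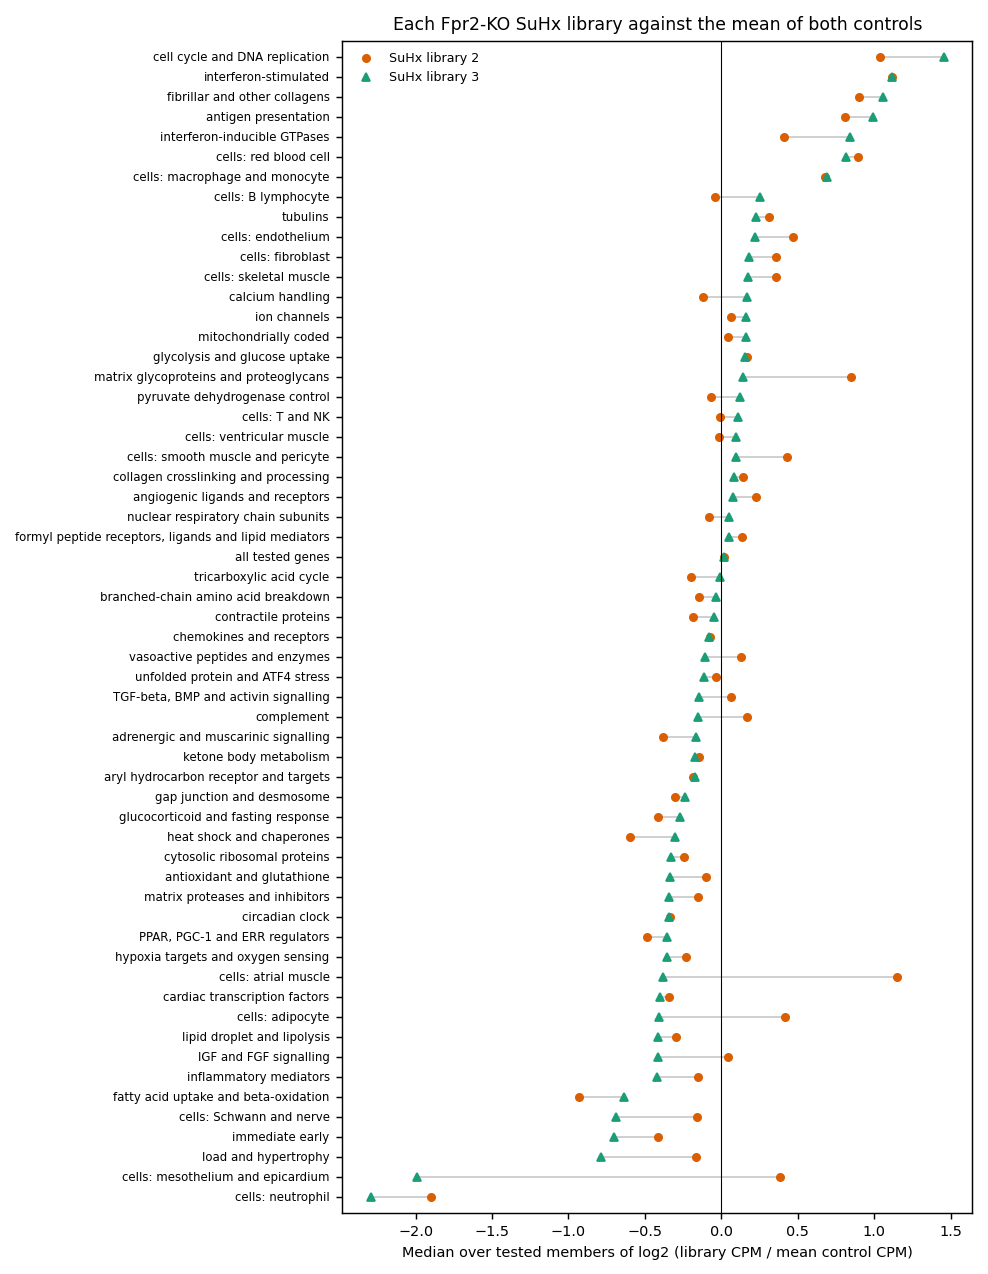
Median over the tested members of each list of log2 (CPM of a Fpr2-KO SuHx library over the mean CPM of both controls), ordered by SuHx library 3; circles are SuHx library 2 and triangles SuHx library 3. The atrial and mesothelial lists have the widest gaps between the libraries, while the interferon-stimulated, collagen and fatty acid lists have both libraries on the same side of 0.

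The response to SuHx could be set beside that of WT, whose libraries were fitted in the same model, by testing the difference of both responses. EdgeR called 0 of 19083 genes for a difference (2417 at an unadjusted p under 0.05, which is 12.7%, and 584 by DESeq2), and the smallest adjusted p was 0.0794. Atrial transcripts touch the WT side as well: Sln stood at 0 and 0.997 CPM in WT SuHx, against 5.94 and 17.0 CPM in WT control, and their part in the differences was not tested. Without WT control library 2 the count was 718, and without WT control library 1 it was 5. For the fatty acid list the median log2 fold change was -0.79 in Fpr2-KO and -0.70 in WT, with 27 members called lower in each genotype, against 5.75% of all tested genes in Fpr2-KO and 9.63% in WT. For the collagens it was 0.99 in Fpr2-KO and 1.25 in WT, and for the interferon-stimulated genes 1.07 and 1.39. Acta1 had 3.30 ± 0.31 in Fpr2-KO and 2.93 ± 0.31 in WT (difference 0.37 ± 0.40, edgeR adjusted p = 0.762), and Postn had 2.56 ± 0.21 and 2.15 ± 0.21 (difference 0.40 ± 0.29, edgeR adjusted p = 0.609).

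The median of the angiogenic genes was 0.22 in Fpr2-KO and 0.66 in WT, with 14 of 27 members at an unadjusted p under 0.05 in edgeR's test of the difference, against 12.7% of all tested genes. EdgeR called 0 of the 27 for a difference, and DESeq2 called 10, all lower in Fpr2-KO. In each of the 14 the edgeR estimate was lower in Fpr2-KO. For Apln the log2 fold change was 2.58 ± 0.28 in Fpr2-KO and 4.65 ± 0.32 in WT (difference -2.07 ± 0.40, edgeR adjusted p = 0.122), and for Aplnr 2.17 ± 0.37 and 4.25 ± 0.41 (difference -2.08 ± 0.52, edgeR adjusted p = 0.208). Nrp1, a co-receptor of VEGF, had -0.32 ± 0.10 in Fpr2-KO and 1.01 ± 0.11 in WT (difference -1.33 ± 0.15, edgeR adjusted p = 0.0794). Ccn2 had 0.61 ± 0.55 in Fpr2-KO and -3.48 ± 0.60 in WT (difference 4.09 ± 0.80, edgeR adjusted p = 0.184). Without SuHx library 2 its Fpr2-KO value was -0.30.

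**Figure D5:**
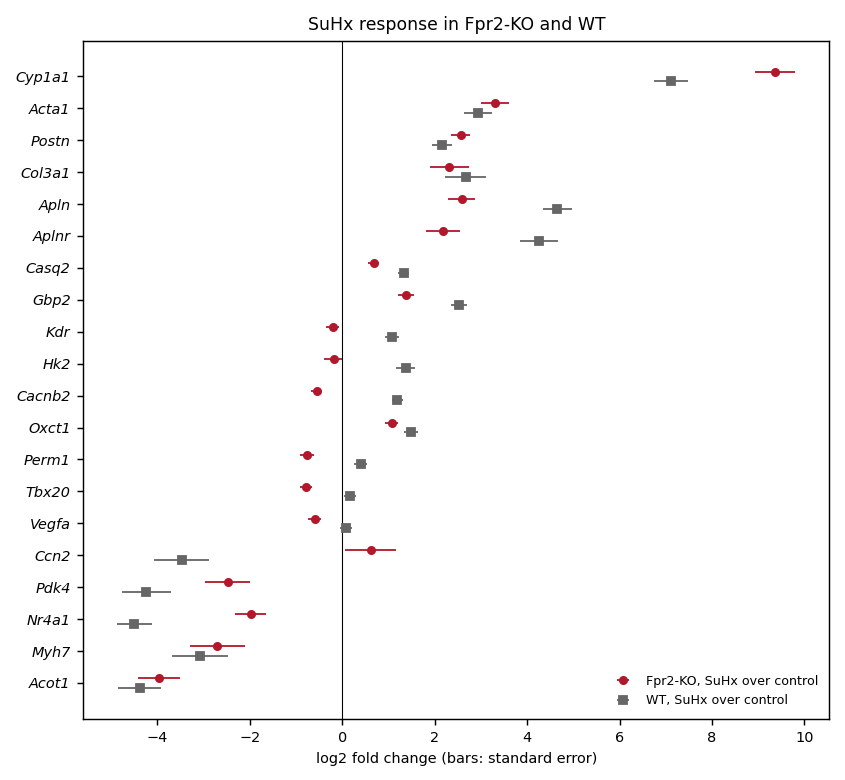
Log2 fold change of SuHx over control with its standard error for 20 genes, chosen after their values were seen, in Fpr2-KO (red circles) and WT (grey squares). Cyp1a1, Acta1, Postn and Acot1 lie on the same side of 0 in both genotypes, and Kdr and Cacnb2 on opposite sides.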

How the data were processed

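Poly(A) RNA of the right ventricle was sequenced from total RNA with an integrity number above 7.0, with libraries that keep the strand, per the labels' protocols. The deposited table gives whole-number counts per gene, not normalized, and 8 further columns of per-sample FPKM values were not used. The submitters' processing notes name cutadapt 1.9, HISAT2 2.2.1, StringTie 2.1.6, DESeq2, edgeR and the build mm10. Neither the strand setting of the counting nor an annotation release is given in the sources used here, so overlapping, antisense and near-identical genes are uncertain. Samples were grouped by title, although the genotype label of 3 of the knockouts reads Fpr3-KO, Fpr4-KO or Fpr5-KO. Columns were assigned to groups by name. Some genes that the rule for names would give are not reported here.

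The counts entered edgeR 4.0.16 (R 4.3.3) with filterByExpr, TMM scaling and a robust glmQLFit, tested two-sided by quasi-likelihood. A single fit held all 8 libraries and 4 group means, with 4 residual degrees of freedom. Of 30495 genes, 19083 were tested and 11412 were left out, and the Benjamini-Hochberg adjustment ran over all that were tested. A gene is called at an adjusted p under 0.05. The ± after a log2 fold change is its standard error, taken from the F statistic. The coefficient of biological variation was 25.1%. Levels per kilobase used the exons of GENCODE M21. Replicates differed by more than sampling noise (chi-square per degree of freedom 23.6 to 76.8). Each library was counted as a sample of its own, but that check cannot tell whether the libraries of a group come from different animals.

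Named genes are the 12 largest called changes in each direction with a mean of at least 5 CPM and no overlap between groups, the 8 largest in each direction called also without SuHx library 2, up to 4 called members per list by p, and a fixed set. Further list members are examples chosen after their values were seen. The members and the 58 lists were chosen with earlier results of these data known. Alternatives were RLE scaling, no filter on low counts, DESeq2 1.42.0, leaving out mitochondrially coded genes, a replicate block, the Fpr2-KO libraries alone, and leaving out each library.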

Additional observations from a re-analysis of the deposited data

Results flagged for a closer look

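Among the genes that the rule for names gives and that are reported here, 4 are listed for opposite movements. In each, both Fpr2-KO SuHx libraries moved one way from their controls and both WT SuHx libraries moved the other way. Genes outside that rule were not searched, so 4 is no count over all tested genes. Within a genotype, edgeR called the SuHx change of Cacnb2 in both, of Perm1 only in Fpr2-KO, of Kdr only in WT and of Bmp10 in neither. By edgeR's test of the difference between the responses, none of the 4 was called, while DESeq2 called all 4. Cacnb2, a calcium channel subunit, had 71.1 and 75.4 CPM in Fpr2-KO SuHx, against 106.3 and 108.7 CPM in Fpr2-KO control, and 82.6 and 75.5 CPM in WT SuHx, against 30.8 and 38.5 CPM in WT control. Its response in Fpr2-KO minus that in WT was -1.74 on the log2 scale (edgeR adjusted p = 0.0794, and 0.00178 to 0.309 over the edgeR alternatives; DESeq2 adjusted p = 5.20e-14). The same difference was -1.16 for Perm1, a regulator of mitochondrial genes in muscle (edgeR adjusted p = 0.118, DESeq2 adjusted p = 4.68e-05) and -1.28 for the VEGF receptor gene Kdr (edgeR adjusted p = 0.117, DESeq2 adjusted p = 8.77e-06). Over the edgeR alternatives the adjusted p ranged from 0.0229 to 0.387 for Perm1 and from 0.0288 to 0.387 for Kdr. For Bmp10 the fitted difference of 27.1 has no usable denominator: the gene had 24461 and 4 counts in Fpr2-KO SuHx, against 0 and 0 counts in Fpr2-KO control, and it was at 0 CPM in both WT SuHx libraries, against 0.0616 and 5.27 CPM in WT control. Its value depends on the prior count and is no bound (edgeR adjusted p = 0.578, DESeq2 adjusted p = 8.42e-12).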

How the results depend on the processing

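With 2 libraries per group, the count of calls depended on single libraries. Of 2038 genes called (941 higher, 1097 lower), leaving out each library in turn gave 234 to 3045 in all, 93 to 1460 higher and 121 to 1588 lower. DESeq2 called 3241 (1503 higher, 1738 lower). The column numbers were not taken to pair the libraries. Deviations of same-numbered Fpr2-KO libraries correlated at 0.00129, but a single correlation from 2 libraries per group cannot show whether libraries were paired. With a replicate block over all 8 libraries the count was 1164 (490 higher, 674 lower). Other scaling, no filter, no mitochondrial genes and the Fpr2-KO libraries alone gave 1934 to 2170, and the Fpr2-KO libraries alone with a replicate block gave 2401. For a difference between genotypes, where edgeR called 0 (2417 at an unadjusted p under 0.05), no filter gave 12, DESeq2 584 and leaving out libraries 0 to 718. The fits of the Fpr2-KO libraries alone give no such test. The log2 fold changes that turned sign belonged to genes that were not called with all libraries. Over the fits that leave out a library, the range was -0.40 to 4.93 for Nppa, -0.78 to 0.69 for Nppb, -0.53 to 0.17 for Myh6, -0.24 to 0.011 for Atp2a2, -0.35 to 0.0018 for Hk2, -0.30 to 1.16 for Ccn2, -5.28 to 5.00 for Il6, -6.54 to 15.8 for Myl7 and -0.31 to 8.49 for Myl4. The replicate block gave -0.15 for Nppb. The cause was not tested. Depth limits genes with few counts, such as Il6 and Fpr1.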

Other observations

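Genes of chromatin and of RNA processing, in 2 groups picked after their values were seen and therefore given with no test of the groups, were mostly lower in Fpr2-KO SuHx. Of 20 chromatin genes, 13 were called lower and 1 higher by edgeR, against 5.75% lower and 4.93% higher among all tested genes. Ash1l, a histone methyltransferase, stood at 47.2 and 48.0 CPM in SuHx, against 99.9 and 87.3 CPM in control (log2 fold change -0.98 ± 0.11, edgeR adjusted p = 0.00338, 0.0370 without SuHx library 2). The one that rose was Hdac9, a class II histone deacetylase, at 23.8 and 27.8 CPM in SuHx, against 14.3 and 9.41 CPM in control (log2 fold change 1.12 ± 0.19, edgeR adjusted p = 0.0119, 0.0554 without SuHx library 2). Of 20 RNA processing genes, 15 were called lower, against the same 5.75%. Since the genes were picked by their values, nothing is read from these counts. Ddx3x, an RNA helicase, had 189 and 199 CPM in SuHx, against 439 and 446 CPM in control (log2 fold change -1.19 ± 0.13, edgeR adjusted p = 0.00354, 0.0368 without SuHx library 2), and Thrap3, a splicing and coactivator protein, had 71.7 and 72.5 CPM in SuHx, against 126 and 126 CPM in control (log2 fold change -0.81 ± 0.09, edgeR adjusted p = 0.00338, 0.0346 without SuHx library 2). Cirbp, a cold-inducible RNA-binding protein, was at 34.8 and 29.5 CPM in SuHx, against 67.2 and 63.9 CPM in control (log2 fold change -1.03 ± 0.14, edgeR adjusted p = 0.00627, 0.0358 without SuHx library 2). The groups did not overlap in any of these genes.

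Red blood cell transcripts stood apart in 1 control library. The 7 markers summed to 334.1 and 335.6 CPM in SuHx, against 49.1 and 355.3 CPM in control, the low value being that of control library 2.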
